A study of Mus musculus with 12 samples.

Results

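The small leucine-rich proteoglycans are secreted matrix proteins built around a curved domain of leucine-rich repeats, most of which carry chondroitin, dermatan or keratan sulphate chains. They bind collagen fibrils and set fibril diameter and spacing, and several also bind growth factors or innate immune receptors. In fibrotic liver and in the dense stroma of bile duct cancers they are made mainly by fibroblasts and activated stellate cells. Rows with the symbols Lum (lumican), Dcn (decorin), Bgn (biglycan), Fmod (fibromodulin), Ogn (osteoglycin, also called mimecan), Omd (osteomodulin), Prelp and Aspn (asporin) were taken, and 8 of 8 were found among the 24421 gene symbols of the table. The set, and within it the pair Lum and Ogn, had been chosen by their FPKM levels over these same 4 groups, so the values of Lum and Ogn are given as a description and carry no test. The other 6 members were tested, but they belong to the set so chosen, and their counts and medians beside those of all genes are a description.

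Bulk RNA-seq had been made from 12 mouse tumours of a model named 425-ICC, labelled as intrahepatic cholangiocarcinoma (bile duct cancer arising within the liver), after 8 days of treatment. The Control group was given IgG. The GC group was given the chemotherapy that the labels abbreviate as GC, the ICB group an immune checkpoint blockade called dual (CTLA-4 and PD1 are named in the title), and the Combination group GC with dual ICB. Each group had 3 libraries. The labels used here give no strain, age, sex, genotype or dose, and do not say whether each library came from a separate animal, so p-values measure only the spread between these libraries. Levels are the deposited FPKM values, which are scaled for transcript length and library total, given as mean ± SD of n = 3 libraries or library by library in replicate order. Differences are estimates ± SE on the log2(FPKM + 1) scale from limma, a linear model fitted over all tested genes and all 12 libraries, and this scale understates changes of weakly expressed genes. A gene was called at a Benjamini-Hochberg adjusted p under 0.05 over the 12765 genes whose 12-library mean reached 1 FPKM. All 8 members reached it. Sequencing depth is unknown.

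Several libraries held transcripts of other tissues. The summed level of 18 hepatocyte markers ran from 23.1 to 115 FPKM in Control, from 778 to 7390 FPKM in GC, from 450.3 to 2269 FPKM in ICB and from 4622 to 96230 FPKM in Combination, with none of the 18 at 0 throughout. The 4622 FPKM were those of Combination replicate 1, with Apoa1 at 3721 FPKM and Alb at 217 FPKM. Of the 18 genes, only Apoa1, Apoc3, Pck1 and Cps1 were above their GC range in that library. Small intestinal markers (12 genes) summed to 5760 FPKM in Combination replicate 1 and to between 23.7 and 591 FPKM elsewhere. Skeletal muscle markers (10 genes) summed to 1060 FPKM in Control replicate 2 and 3125 FPKM in GC replicate 2, and to between 2.23 and 14.4 FPKM in the other libraries. Of 8 epithelial markers of the labelled tumour, the biliary keratin Krt19 was listed at 0 in Control replicates 2 and 3. The adhesion molecule Epcam was at 0 in Control replicate 3 and ICB replicate 1. The others (Cdh1, Krt7, Krt8, Krt18, Sox9 and Spp1) were above 0 in all 12 libraries. Control replicates 1, 2 and 3 had Sox9 at 91.9, 54.8 and 43.5 FPKM and Krt18 at 15.4, 0.151 and 0.07 FPKM. The sum of the 8 was lowest in Combination replicate 2 (614 FPKM, Spp1 276 FPKM) and highest in Combination replicate 3 (7801 FPKM, Spp1 7598 FPKM). The fibroblast list (14 genes, among them Col1a1, Pdgfra and Postn) was well represented, with sums of 2158 to 3248 FPKM in Control, 3833 to 6749 FPKM in GC, 2230 to 4209 FPKM in ICB, and 2226, 568 and 3090 FPKM in Combination replicates 1, 2 and 3. In such bulk libraries fewer cells of a type and less RNA per cell cannot be told apart.

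The members lie in gene clusters. On the mm10 build (GENCODE M21, GRCm38), Dcn (chromosome 10, 97479609 to 97518143) and Lum (chromosome 10, 97565128 to 97572703) are neighbours on the plus strand, 46984 bases apart, followed by the corneal proteoglycan gene Kera and by Epyc. Aspn (chromosome 13, 49544443 to 49567565), Omd (49582462 to 49592822) and Ogn (49608046 to 49624501) follow each other on the plus strand of chromosome 13 after Ecm2, with gaps of 14896 bases between Aspn and Omd and 15223 bases between Omd and Ogn. Prelp (chromosome 1, 133910304 to 133921414, minus strand) and Fmod (134037254 to 134048277, plus strand) lie 115839 bases apart with the opticin gene Optc beside Prelp, and Bgn lies alone on chromosome X (73483602 to 73495933). The whole chromosome 13 row lies inside the span of Cenpp, a centromere protein gene on the minus strand. Exons of Ogn and Omd share 0 bases with exons of Cenpp, and those of Aspn share 7. The library kit keeps strand, but the strand setting of the read counting is not given in the sources used here, so reads of such overlapping genes might not have been told apart, and Cenpp levels are given below beside those of Ogn. An antisense gene without a row in the table, Gm15851, shares 350 exon bases with Prelp.

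Start-site sequences of 6 members (Ogn, Omd, Aspn, Bgn, Prelp and Fmod) were matched in RefSeq (GRCm38.p6). The chromosome 13 neighbours are shown because Ogn, Omd and Aspn took different patterns over the groups although they lie side by side in one orientation, and Bgn because it was the most abundant member. Each window holds 250 bases before and 50 bases after the start, written 5′ to 3′ on the gene's own strand, all 4 genes being on the plus strand. Capitals mark matches, on either strand and at any position, to TATAAA (the letters of a TATA box), TGANTCA (AP-1), GGAATG (TEAD factors, the DNA partners of YAP) and GGGCGG (Sp1). A match of letters alone does not show a working site.
Ogn, chr13:49607765-49608064: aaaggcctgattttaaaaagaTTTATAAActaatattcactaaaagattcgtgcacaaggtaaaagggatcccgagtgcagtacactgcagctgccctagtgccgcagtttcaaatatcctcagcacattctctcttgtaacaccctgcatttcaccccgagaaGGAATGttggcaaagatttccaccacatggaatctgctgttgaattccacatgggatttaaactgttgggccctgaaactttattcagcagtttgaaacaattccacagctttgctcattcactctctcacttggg
Omd, chr13:49582212-49582511: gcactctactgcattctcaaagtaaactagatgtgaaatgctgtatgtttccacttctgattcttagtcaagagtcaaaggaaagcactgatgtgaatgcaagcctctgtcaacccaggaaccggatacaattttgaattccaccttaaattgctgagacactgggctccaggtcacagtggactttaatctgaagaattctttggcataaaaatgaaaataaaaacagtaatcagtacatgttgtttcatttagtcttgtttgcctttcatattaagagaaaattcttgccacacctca
Aspn, chr13:49544193-49544492: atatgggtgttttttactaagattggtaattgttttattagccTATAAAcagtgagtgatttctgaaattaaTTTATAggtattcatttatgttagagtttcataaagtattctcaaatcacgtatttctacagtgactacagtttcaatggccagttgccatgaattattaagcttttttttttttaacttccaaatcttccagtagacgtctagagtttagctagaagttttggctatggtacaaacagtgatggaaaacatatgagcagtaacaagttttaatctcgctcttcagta
Bgn, chrX:73483351-73483650: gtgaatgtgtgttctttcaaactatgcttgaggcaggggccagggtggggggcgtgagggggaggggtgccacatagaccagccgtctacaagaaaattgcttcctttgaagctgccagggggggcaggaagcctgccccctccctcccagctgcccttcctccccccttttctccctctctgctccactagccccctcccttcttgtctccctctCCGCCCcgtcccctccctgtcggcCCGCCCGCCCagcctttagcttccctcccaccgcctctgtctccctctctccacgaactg
The Ogn window held overlapping TATAAA matches on both strands, at positions -229 and -227 (-1 is the base before the start), and 1 GGAATG match at -86. The Aspn window held TATAAA matches at -207 and -178, and the Bgn window 3 GGGCGG matches on the minus strand, at -34, -10 and -6, the last of which overlaps the one before it. The Omd, Prelp and Fmod windows held none of the 4 motifs. Of 32817 RefSeq start windows of the same length, 13.6% held TATAAA, 14.7% GGAATG, 35.6% GGGCGG and 7.81% TGANTCA. Base composition differed among the members: G and C made up 31% of the Aspn window, 37.7% of Omd, 42.3% of Ogn, 51% of Fmod, 55.3% of Prelp and 63.7% of Bgn, against a median of 52.7% over all windows.

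Bgn, Dcn and Lum made up most of the family's transcripts. Per length, Bgn stood at 218 ± 143 FPKM in Control, Dcn at 54.4 ± 28.8, Lum at 12.8 ± 10, Ogn at 10.9 ± 3.6, Prelp at 5.49 ± 3.67, Fmod at 4.67 ± 7.23, Aspn at 4.29 ± 6.32 and Omd at 1.27 ± 0.276 FPKM. In that order only Dcn and Lum did not overlap as neighbours, all 3 Dcn values being above all 3 Lum values. Ogn held rank 4 in Control, rank 7 in GC (3.53 ± 0.597 FPKM), rank 5 in ICB (7.24 ± 1.83 FPKM) and rank 7 in Combination (1.19 ± 0.68 FPKM), and Prelp took rank 4 in each treated group. In GC and ICB each of Bgn, Dcn and Lum lay above the next member without overlap, and in Combination Bgn and Dcn did while Lum overlapped Prelp. Of the lower ranks, Ogn above Omd in GC, Ogn above Aspn in ICB and Prelp above Fmod in Combination did not overlap, and all other neighbours did. Together the 8 members summed to 104 to 451 FPKM in Control, 672 to 1020 FPKM in GC, 357 to 911 FPKM in ICB and 223 to 502 FPKM in Combination. Bgn, Dcn and Lum made up 80.5% to 97.5% of that sum. The lowest share was in Control replicate 3, where Ogn alone made up 14.4% of it.

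**Figure D1:**
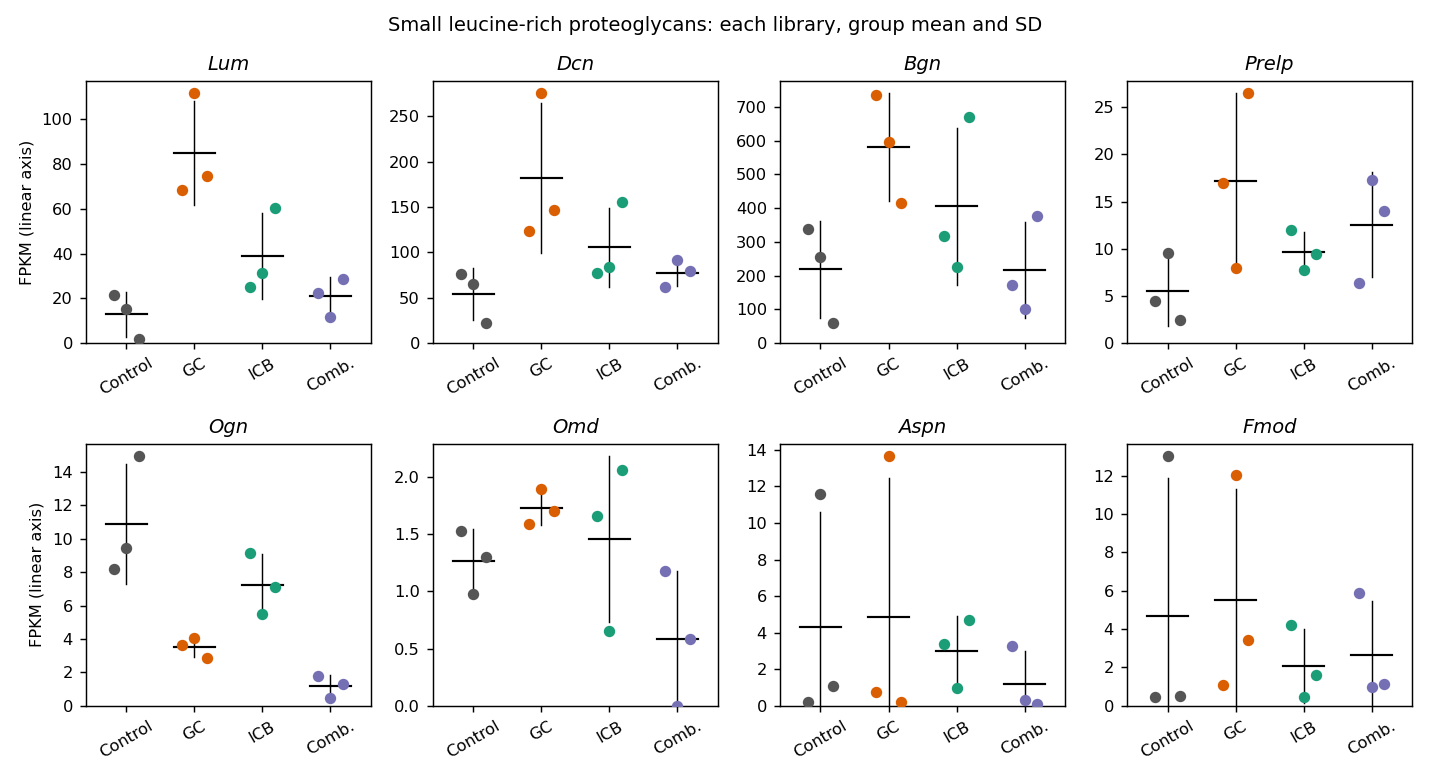
FPKM of the 8 members in each library by group (points; linear axes that start at 0 and differ between panels), with the group mean (horizontal line) and SD (vertical line, drawn down to 0 at most), n = 3 libraries a group. Lum, Dcn and Bgn had their highest means in GC (84.9, 182 and 582 FPKM), whereas the mean of Ogn was highest in Control (10.9 FPKM) and lowest in Combination (1.19 FPKM).

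Lumican, a keratan sulphate proteoglycan that spaces collagen fibrils, was highest in GC. Lum stood at 21.4, 15.3 and 1.79 FPKM in the Control libraries, 68.6, 112 and 74.7 FPKM in GC, 24.9, 31.2 and 60.5 FPKM in ICB, and 22.4, 11.5 and 28.7 FPKM in Combination. Every GC library was above every library of the other groups, every ICB library was above every Control library, and Combination overlapped both Control and ICB. The ratio of group means to Control was 6.63 in GC, 3.04 in ICB and 1.63 in Combination. On the log2(FPKM + 1) scale the differences from Control were 3.06 ± 0.67 in GC, 1.89 ± 0.67 in ICB and 1.03 ± 0.67 in Combination. Control replicate 3 lay far under the other Control libraries, and without it the difference from Control was 2.14 in GC, 0.96 in ICB and 0.11 in Combination. Without Control replicate 1 the Combination difference was 1.61.

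Osteoglycin, a proteoglycan of bone, vessel wall and connective tissue sheaths, took another course. Ogn stood at 8.22, 9.45 and 14.97 FPKM in the Control libraries, 3.67, 4.04 and 2.87 FPKM in GC, 9.13, 5.47 and 7.12 FPKM in ICB, and 1.81, 0.463 and 1.31 FPKM in Combination. All GC and all Combination libraries were below all Control and all ICB libraries, and all Combination libraries were below all GC libraries. Control and ICB overlapped. The Control mean was 3.09 times the GC mean, 1.5 times the ICB mean and 9.12 times the Combination mean. Differences from Control were -1.36 ± 0.31 in GC, -0.51 ± 0.31 in ICB and -2.45 ± 0.31 in Combination on the log2(FPKM + 1) scale, and Combination lay 1.09 under GC (-1.09 ± 0.31) and 1.94 under ICB (-1.94 ± 0.31). The interaction of GC and ICB, which is 0 where the effects of both treatments add up on this scale, was -0.58 ± 0.44 for Ogn and -3.92 ± 0.95 for Lum.

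The balance of Lum and Ogn differed between the groups given GC and those not given it. Lum was 2.6, 1.62 and 0.119 times Ogn in the Control libraries, 18.7, 27.6 and 26 times in GC, 2.73, 5.71 and 8.5 times in ICB and 12.4, 24.9 and 21.9 times in Combination. The GC and Combination libraries overlapped in this ratio and were all above the Control and ICB libraries. They reached it from different levels: Lum was high and Ogn moderately low in GC, while in Combination Lum was near its ICB and Control levels and Ogn was lowest. Control replicate 3 was the single library with more Ogn than Lum. Since the pair was chosen for this contrast, the ratio is a description without a test.

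**Figure D2:**
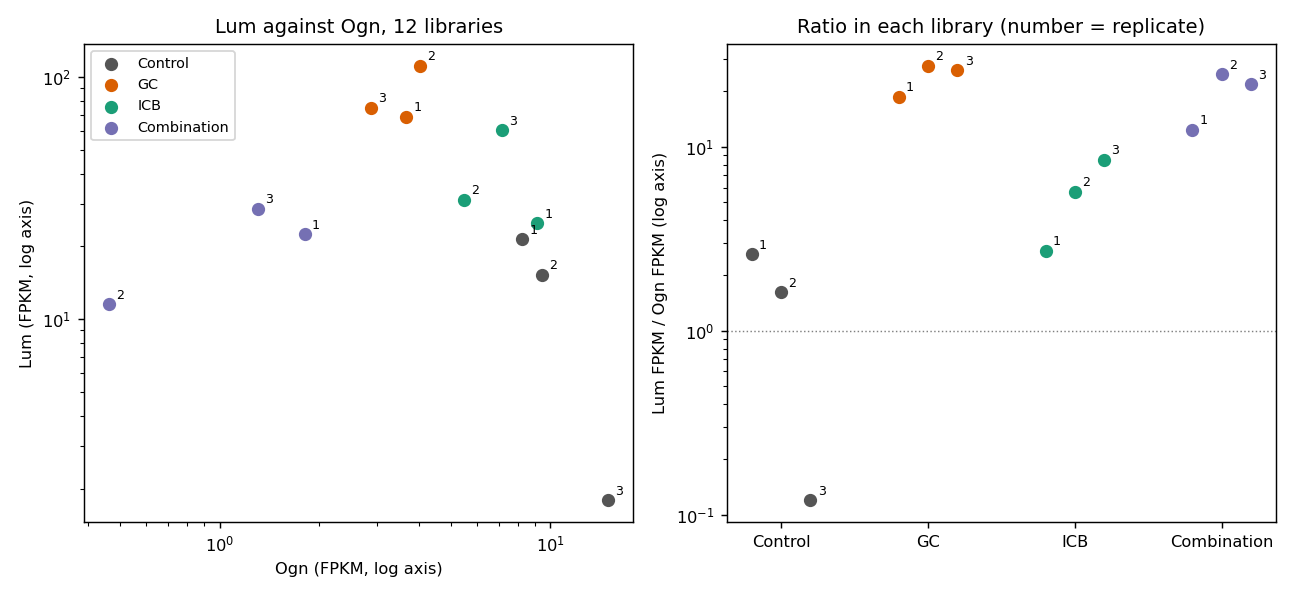
Left, Lum against Ogn in FPKM on log axes, 1 point per library, colour for group and number for replicate. Right, the ratio of Lum to Ogn in each library on a log axis, with a dotted line at equal levels. The GC libraries (ratios 18.7 to 27.6) and Combination libraries (12.4 to 24.9) lie above the Control (0.119 to 2.6) and ICB libraries (2.73 to 8.5).

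Other transcripts were set beside Ogn. The fibroblast, mesothelial and Cenpp transcripts followed it in part or not at all, and the hepatocyte transcripts ran largely opposite to it. The summed fibroblast list of Combination replicates 1 and 3 (2226 and 3090 FPKM) lay within the Control range, while Ogn in those libraries (1.81 and 1.31 FPKM) was under its lowest Control value (8.22 FPKM). In all 3 GC libraries the summed list was above the Control range while Ogn was below it, whereas by the list's mean log2(FPKM + 1) GC replicates 1 and 3 (5.89 and 5.83) lay within the Control range of 4.82 to 5.90. Msln (mesothelin, a marker of the mesothelial lining that some bile duct cancers also make) stood at 136, 111 and 262 FPKM in Control, 55.7, 96.7 and 93.3 FPKM in GC, 212, 110 and 69.2 FPKM in ICB and 62.5, 5.23 and 12.9 FPKM in Combination, and was called lower in Combination than in Control (-3.17 ± 0.72, limma adjusted p = 0.0328). Of the mesothelial list's 7 genes none was at 0 throughout, their sums running from 113 to 263 FPKM in Control, 63.1 to 110 FPKM in GC, 94.3 to 222 FPKM in ICB and 10.2 to 113 FPKM in Combination. Msln made up most of each sum. The list's mean log2(FPKM + 1) was 1.72 in Control, 1.83 in GC, 2.08 in ICB and 1.42 in Combination. Uncalled, Krt19 differed from Control by 1.97 in Combination, and Wt1 by 0.96 in GC, 0.71 in ICB and -0.67 in Combination. Among the defining mesothelial genes, Upk1b was at most 4.42 FPKM, Upk3b at most 4.27 FPKM and Lrrn4 at most 1.31 FPKM, all in ICB replicate 3, and Upk1b was at 0 in 5 libraries, among them Control replicate 3 and Combination replicate 2, which had the highest and the lowest Ogn. Cenpp stood at 1.49, 7.34 and 10.3 FPKM in Control, 4.1, 3.55 and 2.92 FPKM in GC, 3.3, 2.89 and 2.42 FPKM in ICB and 2.93, 0.341 and 1.5 FPKM in Combination. Like Ogn, Cenpp was highest in Control replicate 3 and lowest in Combination replicate 2. Unlike Ogn, it was lower in Control replicate 1 (1.49 FPKM) than in every GC and ICB library. Over the 12 libraries its Pearson's r with Ogn was 0.730 (Spearman's rho = 0.552). Hepatocyte transcripts were highest in the Combination libraries that had the least Ogn. With the mean of the hepatocyte list as a covariate, the Ogn difference between Combination and Control was -1.32 in place of -2.45. With that covariate the difference between GC and Control was -0.67 in place of -1.36. The list's mean log2(FPKM + 1) was 0.70 to 1.96 in Control, 4.68 to 7.24 in GC and 4.96 to 10.87 in Combination. With no overlap with Control, the covariate cannot tell hepatocyte content from treatment. The part of the hepatocyte, mesothelial and Cenpp transcripts in the Ogn levels was not tested.

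Decorin and biglycan, the chondroitin and dermatan sulphate members that bind collagen and TGF-beta, followed Lum. Dcn stood at 76.3, 65.3 and 21.8 FPKM in Control, 124, 276 and 147 FPKM in GC, 77.6, 83.9 and 156 FPKM in ICB and 61.8, 91.2 and 79.96 FPKM in Combination. GC did not overlap Control or Combination, and ICB did not overlap Control. Bgn stood at 339, 256 and 60.2 FPKM in Control, 736, 595 and 416 FPKM in GC, 319, 226 and 669 FPKM in ICB and 173, 102 and 376 FPKM in Combination. For Bgn too, GC overlapped neither Control nor Combination, and ICB overlapped Control. Neither gene was called. The differences between GC and Control were 1.82 ± 0.48 for Dcn (limma adjusted p = 0.212) and 1.70 ± 0.67 for Bgn (limma adjusted p = 0.417). Between ICB and Control they were 1.06 ± 0.48 and 1.06 ± 0.67 (limma adjusted p = 1 each), and between Combination and Control 0.67 ± 0.48 (limma adjusted p = 0.363) and 0.11 ± 0.67 (limma adjusted p = 0.921). Without Control replicate 3, which was lowest in both genes, the differences from Control were 1.26 in GC, 0.51 in ICB and 0.12 in Combination for Dcn, and 0.94 in GC and 0.30 in ICB for Bgn. The sign of the Combination difference turned with the hepatocyte list as a covariate for both genes (-0.12 for Dcn and -0.11 for Bgn), and for Bgn also without Control replicate 3 (-0.65) and without Combination replicate 3 (-0.38).

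The balance of the abundant members also shifted in single libraries. Bgn was 1.12 to 5.96 times Dcn over the 12 libraries, with the lowest ratio in Combination replicate 2, the most hepatocyte-rich library, and the highest in GC replicate 1. Dcn was 12.2 times Lum in Control replicate 3 and 7.9 times in Combination replicate 2, and between 1.8 and 4.28 times in the other 10 libraries. The adjacent genes Dcn and Lum thus varied in their ratio from library to library.

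Prelp, which links basement membranes to the collagen matrix beneath, stood at 4.49, 9.55 and 2.43 FPKM in Control, 17, 7.91 and 26.5 FPKM in GC, 11.9, 7.73 and 9.44 FPKM in ICB and 6.38, 17.2 and 13.9 FPKM in Combination. All treated groups overlapped Control. Its mean was 3.12 times the Control mean in GC, 1.77 times in ICB and 2.28 times in Combination, the last being the highest Combination ratio of the 8 members. The differences were 1.49 ± 0.50 (limma adjusted p = 0.324), 0.86 ± 0.50 (limma adjusted p = 1) and 1.11 ± 0.50 (limma adjusted p = 0.186). Unlike Dcn and Bgn, Prelp in Combination overlapped its GC level (-0.38 ± 0.50, limma adjusted p = 0.607). Without Control replicate 3 its differences from Control were 0.47 in ICB and 0.73 in Combination. With the hepatocyte list as a covariate the sign of its Combination difference from Control turned (-0.68).

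Osteomodulin, a keratan sulphate member of bone matrix and the immediate neighbour of Ogn, had the lowest mean of the 8 members in every group. Omd stood at 1.53, 0.978 and 1.3 FPKM in Control, 1.59, 1.9 and 1.7 FPKM in GC and 1.66, 0.653 and 2.06 FPKM in ICB, and at 1.18, 0 and 0.587 FPKM in Combination. All GC libraries lay above all Control and all Combination libraries, by small amounts. In GC, Omd and Ogn thus lay on opposite sides of Control, and in Combination both means were lowest of the 4 groups. Combination differed from GC by -0.85 ± 0.35 (limma adjusted p = 0.285). Without Combination replicate 1, the intestine-rich library, this was -1.11 ± 0.28 and passed (limma adjusted p = 0.0237), in a fit that called 3014 of 12765 genes, against 85 with all libraries. The bone proteins that often accompany Omd were mixed: the osteocalcin gene Bglap was at 0 in 11 of 12 libraries, while the bone sialoprotein gene Ibsp reached 119 FPKM and Dmp1 139 FPKM in Combination replicate 3.

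Fibromodulin, which regulates collagen fibril assembly in tendon, and asporin, a member without a conventional sugar chain that inhibits TGF-beta, differed most within groups. Fmod stood at 0.468, 13 and 0.53 FPKM in Control, 1.11, 12 and 3.46 FPKM in GC, 4.19, 0.454 and 1.61 FPKM in ICB and 5.87, 0.98 and 1.15 FPKM in Combination. Aspn stood at 0.232, 11.6 and 1.07 FPKM in Control, 0.756, 13.6 and 0.198 FPKM in GC, 3.37, 0.956 and 4.68 FPKM in ICB and 3.25, 0.32 and 0.0738 FPKM in Combination. For both genes the highest values were in Control replicate 2 and GC replicate 2, the libraries with the muscle actin gene Acta1 at 348 and 937 FPKM, against at most 4.8 FPKM in the other libraries. Tnmd, a tendon marker, was at 2.03 FPKM in Control replicate 2, 0.278 FPKM in ICB replicate 1 and 0 elsewhere, GC replicate 2 included. The part of muscle or tendon tissue in the Fmod and Aspn levels was not tested. The groups overlapped in every comparison, and the differences from Control lay between -0.80 ± 1.03 (Aspn, Combination) and 0.65 ± 0.93 (Fmod, GC), with limma adjusted p from 0.608 to 1. Without both muscle-rich libraries the differences of Fmod from Control were 1.03 in GC, 0.85 in ICB and 1.04 in Combination, and those of Aspn -0.14, 1.19 and 0.19, so that the sign turned for Fmod in ICB and Combination and for Aspn in Combination.

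**Figure D3:**
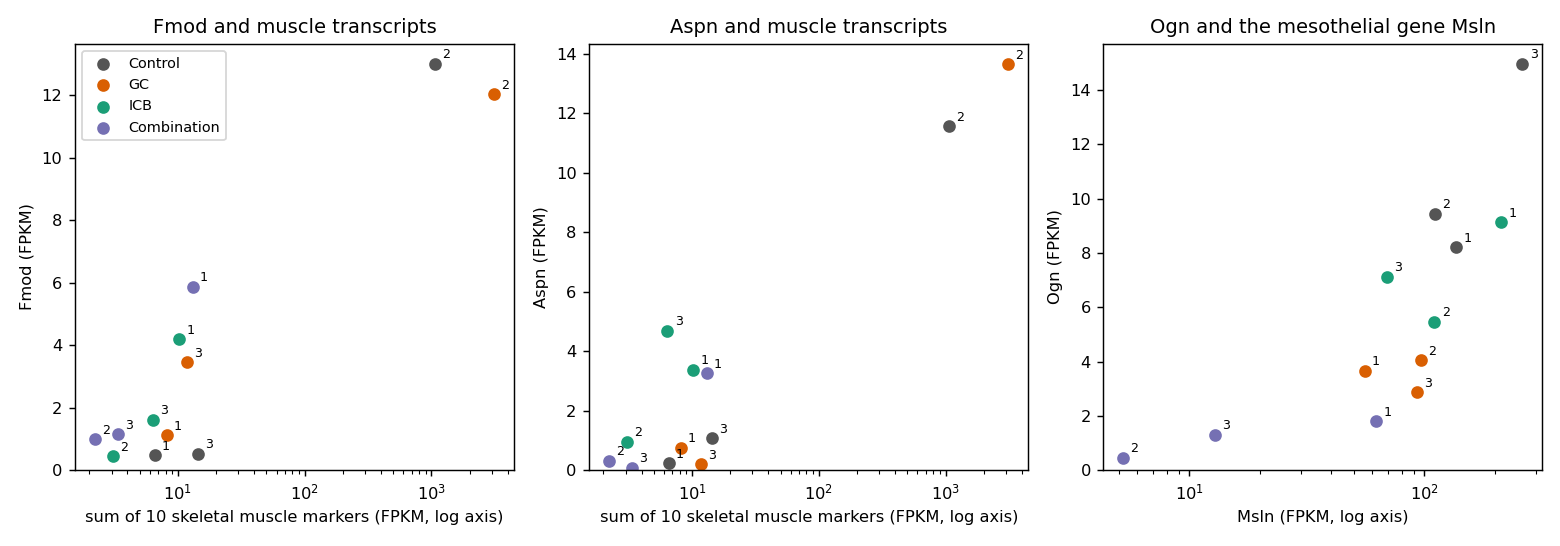
Fmod and Aspn (FPKM) against the summed level of 10 skeletal muscle markers (FPKM, log axis), and Ogn (FPKM) against Msln (FPKM, log axis), 1 point per library, colour for group and number for replicate. Control replicate 2 and GC replicate 2 stand apart in muscle transcripts and in both proteoglycans (13 and 12 FPKM Fmod, 11.6 and 13.6 FPKM Aspn), and Combination replicates 2 and 3 are lowest in both Msln and Ogn.

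Counts over the family are read against the counts over all genes. Between GC and Control, limma called 1 of 12765 genes (0.00783%) and 0 of the 6 tested members, 3 of which (Dcn, Bgn and Prelp, all higher in GC) had an unadjusted p under 0.05, as did 9.86% of all genes. In the same comparison 3 of the 6 (Dcn, Bgn and Omd) were higher in GC with no overlap of libraries, against 18.6% of all genes, and 0 were lower, against 9.29%. Between ICB and Control 0 genes were called (0%), 1 of the 6 members (Dcn) had an unadjusted p under 0.05 against 1.75% of all genes, and 1 (Dcn) was higher without overlap, against 4.65%. Between Combination and Control 3.95% of genes were called and 0 of the 6 members by limma, with 1 (Prelp) at an unadjusted p under 0.05 against 26.3% of all genes. Of all genes 0.400% were called lower there. None of the 6 was lower without overlap, against 13.2% of all genes, or higher, against 9.74%. Between Combination and GC, where 0.666% of genes were called, 3 of the 6 (Dcn, Bgn and Omd) were lower without overlap, against 14.2% of all genes, and 0 were higher, against 4.16%. Of all genes 0.0235% were called lower, and 0 of the 6 tested members were called by limma. Of those 6, Bgn, Dcn and Omd had an unadjusted p under 0.05, against 16.5% of all genes. Between Combination and ICB, where 2.24% of genes were called (0.188% lower), 0 of the 6 were called by limma and 0 had an unadjusted p under 0.05, against 20.5% of all genes, and 0 were lower without overlap, against 10.1%. Lum and Ogn are left out of these counts because they were chosen by their levels in the same groups. The set that holds the other 6 was chosen by the same levels, and Dcn and Bgn followed Lum. The counts over the 6 are therefore not independent of that choice, and no excess over all genes is read from them. In the interaction, where 0.0157% of genes were called, 0 of the 6 passed in limma. The interaction was -2.20 ± 0.68 for Dcn (limma adjusted p = 0.461) and -2.65 ± 0.94 for Bgn (limma adjusted p = 0.505), both with an unadjusted p under 0.05, as 8.09% of all genes had. These backgrounds depended on Combination replicate 1: without it 183 genes were called between GC and Control, 3167 between Combination and Control, 3014 between Combination and GC, 2050 between Combination and ICB and 812 in the interaction.

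The median difference over the 6 tested members was 1.07 in GC, 0.53 in ICB and 0.04 in Combination, each against Control. Over all tested genes the medians were 0.09, -0.06 and -0.29. These 3 comparisons share the Control libraries, and with them the low Lum, Dcn and Bgn values of Control replicate 3. Since the set was chosen by levels in these groups, the medians over the 6 are a description. Against GC, the Combination median was -0.82 over the 6 and -0.36 over all genes, and all 6 had a negative sign, where 23.8% of all genes were positive. The interaction was negative for all 6, with a median of -1.11, against a median of -0.26 over all genes, of which 31.8% were positive.

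**Figure D4:**
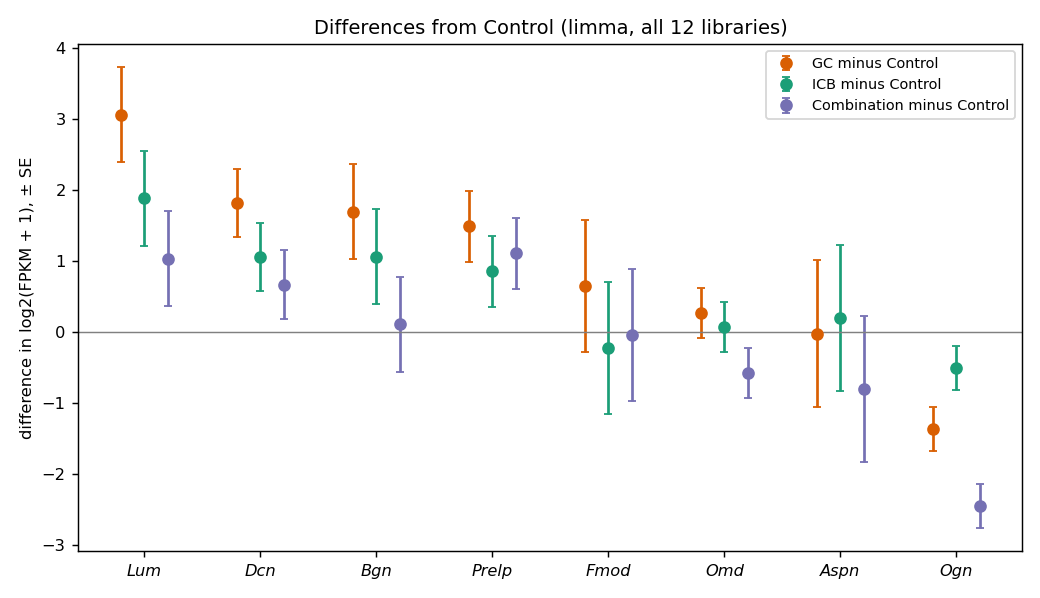
Difference of each treated group from Control in log2(FPKM + 1) for the 8 members (points, limma estimates from all 12 libraries; bars, SE). Lum, Dcn, Bgn and Prelp lie above 0 in all 3 treated groups and Ogn below 0 in all 3, at -1.36 in GC and -2.45 in Combination.

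Fibroblast transcripts differed between the libraries, so each member was also set against them. The log2(FPKM + 1) value of each member minus the mean of the 14 fibroblast genes in the same library was taken. By this measure Lum stood at -1.94 ± 1.36 (SD, n = 3) in Control, 0.18 ± 0.27 in GC, -0.40 ± 0.41 in ICB and -0.38 ± 0.53 in Combination. Ogn stood at -1.74 ± 0.86, -4.05 ± 0.49, -2.60 ± 0.46 and -3.66 ± 0.66. The Lum values of GC were all above those of Control, and those of ICB and Combination overlapped them. All GC and Combination values of Ogn were below all Control values by this measure too. For the other 6 members the differences from Control ran from -0.97 (Aspn, GC) to 1.64 (Prelp, Combination), and none was past the threshold in exact two-sided permutation tests (18 tests, smallest p = 0.2, adjusted p = 0.75), a design that cannot give a p under 0.1. In Combination replicate 2, where the fibroblast list was lowest, Dcn (3.07) and Prelp (0.73) were at their highest relative to it.

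**Figure D5:**
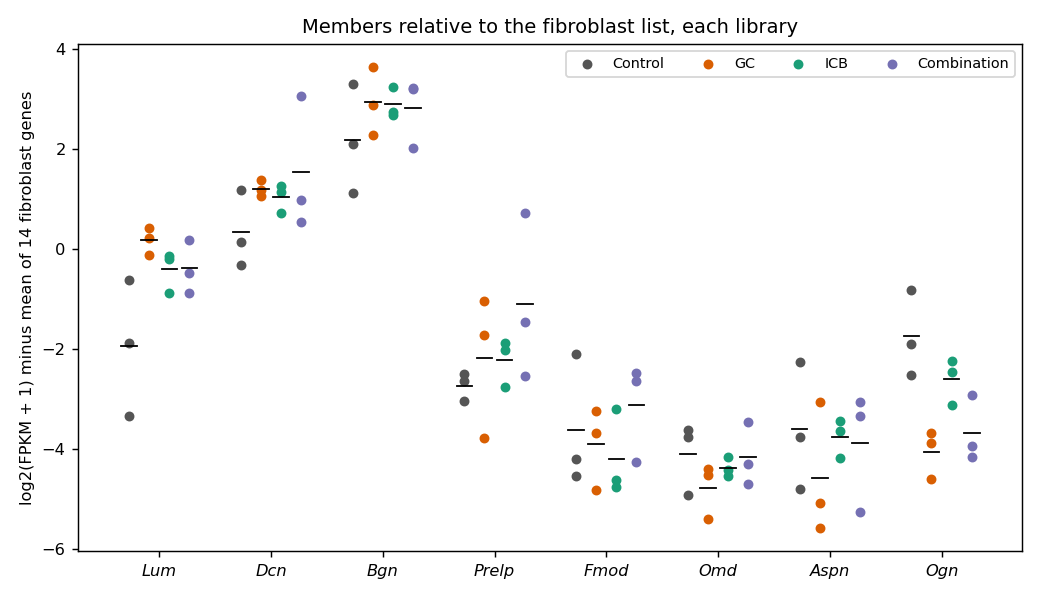
log2(FPKM + 1) of each member minus the mean log2(FPKM + 1) of 14 fibroblast genes in the same library (points, 3 libraries a group; black lines, group means). Lum lies higher in the treated groups (means -0.40 to 0.18) than in Control (-1.94), and Ogn lower in GC (-4.05) and Combination (-3.66) than in Control (-1.74).

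The remaining genes of the class were mostly low. Of 10 further small leucine-rich repeat matrix genes, 3 had a mean of at least 1 FPKM. Epyc was listed at 0 in all libraries, Kera (adjacent to Lum) was above 0 in 2 libraries, both muscle-rich, and Ecm2, the gene before Aspn, reached 1.5 FPKM in GC replicate 2. Podnl1, a podocan-like gene, stood at 31.1 ± 17.6 FPKM in Control, 17.3 ± 2.96 in GC, 29.4 ± 5.81 in ICB and 11.1 ± 8.33 FPKM in Combination, the same order of group means as Ogn. It differed from Control by -1.63 ± 0.68 in Combination (limma adjusted p = 0.161). Tsku (tsukushi), a secreted modulator of growth factor signalling that the liver makes, stood at 7.46 ± 5.39, 16.8 ± 3.47, 13.8 ± 3.75 and 27.8 ± 12.1 FPKM, with its highest values in the hepatocyte-rich Combination replicates 2 and 3 (33.1 and 36.3 FPKM). Its difference between Combination and Control was 1.98 ± 0.57 (limma adjusted p = 0.0763).

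On the log2(FPKM + 1) scale the collagens that the proteoglycans coat were mostly above Control in GC and below it in Combination, without a call. Of 7 tested fibril-forming collagen genes 7 had a positive sign in GC against Control (median 0.92) and 1 in Combination (median -0.57), and 0 were called in either by limma. Col3a1, a fibril collagen of reticular matrix, differed by 2.05 ± 0.56 in GC (limma adjusted p = 0.222), and Col1a2, a chain of type I collagen, by -0.99 ± 0.64 in Combination (limma adjusted p = 0.318). In Combination, Col1a1, Col1a2 and Col3a1 were lowest in replicate 2 (69.5, 67 and 71.8 FPKM). In replicates 1 and 3 they lay within or above their Control ranges. The mean of Col3a1 was 220 FPKM in Combination and 214 FPKM in Control. Over all tested genes 58.1% had a positive sign in GC and 33% in Combination. Fibril-associated and beaded-filament collagens (6 genes) had medians of 0.16 in GC and -1.13 in Combination, with 0 called.

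Enzymes that build the sugar chains were not called in any comparison with Control. For chondroitin and dermatan sulphate synthesis (17 of 22 genes tested) the medians were 0.24 in GC, -0.06 in ICB and -0.53 in Combination, with 0 called. The gene of smallest p in GC was B3gat3, which completes the linker to which the chain is attached (0.86 ± 0.31, limma adjusted p = 0.379). For keratan sulphate synthesis (6 of 9 genes tested) the medians were 0.46, 0.14 and -0.38, again with 0 called. B4galt4, a galactosyltransferase of that pathway, differed by 1.18 ± 0.40 in GC (limma adjusted p = 0.329).

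Among proteases and enhancers that process the core proteins or collagen (9 of 12 tested, 0 called), Pcolce2, an enhancer of procollagen processing, differed by 1.59 ± 0.37 in GC (limma adjusted p = 0.172). Adamts1, a protease of large proteoglycans, differed by -1.19 ± 0.39 in GC (limma adjusted p = 0.313) and by -1.44 ± 0.39 in Combination (limma adjusted p = 0.0617). Of the receptors and growth factors that these proteoglycans bind, 14 of 17 were tested and 0 called. Egfr, a receptor bound by decorin and abundant in liver, differed by 2.90 ± 0.88 in Combination (limma adjusted p = 0.0872), and Igf1r, also bound by decorin, by -1.46 ± 0.46 (limma adjusted p = 0.0957). Of 20 other matrix proteoglycans 13 were tested and 0 called. The cartilage proteoglycan gene Acan differed by -1.90 ± 0.65 in Combination (limma adjusted p = 0.108), and the granule proteoglycan gene Srgn of blood cells by -1.91 ± 0.65 (limma adjusted p = 0.107).

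The genes most like Lum and Ogn were found by Pearson's r of log2(FPKM + 1) over the 12 libraries, which share their treatment groups and tissue content, among all tested genes. Those most like Lum were Smoc2, a secreted calcium-binding matrix protein (r = 0.954, rho = 0.846), Dkk3 (r = 0.948, rho = 0.909), Hs6st2 (r = 0.939, rho = 0.916), Snhg18 (r = 0.936, rho = 0.895) and Dcn (r = 0.935, rho = 0.811). Smoc2 stood at 11.8 ± 13.7 FPKM in Control, 46.5 ± 2.88 in GC, 29 ± 18.6 in ICB and 16 ± 9.5 in Combination, the same order of means as Lum. Bgn was placed 14 in that list. Those most like Ogn were Sema3f, a secreted guidance protein (r = 0.944, rho = 0.944), Gabre (r = 0.938, rho = 0.888), Tmem100 (r = 0.937, rho = 0.923), Atr, a kinase of the DNA damage response (r = 0.925, rho = 0.944) and Lrrcc1 (r = 0.924, rho = 0.944). Tmem100 stood at 9.86 ± 1.1 FPKM in Control, 6.16 ± 0.927 in GC, 9.6 ± 3.44 in ICB and 2.8 ± 1.45 in Combination. No member was among the 5 genes most like Ogn. Its nearest member was its neighbour Omd by r (r = 0.586, rho = 0.315) and Aspn by rho (r = 0.351, rho = 0.503). With Lum it had r = -0.277 (rho = -0.287). These likenesses are descriptions over 12 libraries and carry no test.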

How the data were processed

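Total RNA of 12 tumours (4 groups of 3) was sequenced, and 1 table of FPKM values per gene symbol was deposited by the authors. The submitters' processing notes name FastQC, cutadapt, HISAT2, SAMtools, HTSeq and the mm10 build, with no versions or settings given in the sources used here. The FPKM values were used as deposited. Whole reads could not be recovered from them: over 66 pairs of libraries the steps between low values put at most 17.3% of genes in one bin of ratios. Depth, and so counting error, is therefore unknown.

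Columns were matched to samples by the labels' descriptions. Values were taken as log2(FPKM + 1) and fitted with limma 3.58.1 (R 4.3.3) with group means, all 12 libraries, an intensity trend and Benjamini-Hochberg adjustment over the 12765 genes averaging 1 FPKM or more, a procedure tested on simulated data. The 3 treated groups were compared with Control, Combination with GC and ICB, and the interaction was taken. Levels relative to fibroblast genes were compared with exact two-sided permutation tests. All 8 members are named, with up to 2 genes of smallest p per list, direction and comparison with Control, and the 5 genes most like Lum and Ogn. Further genes (markers, neighbours and the other class members) were named after their values were seen. The members and lists were chosen with earlier results of these data known. Alternatives were a pseudocount of 0.1, no filter on low values, TMM scaling (trimmed mean of M values), the compared groups alone, a replicate block, hepatocyte or fibroblast covariates and leaving out each library. Leaving out both muscle-rich libraries was chosen after seeing the data.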

Additional observations from a re-analysis of the deposited data

How the results depend on the processing

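Depth is unknown and each group had 3 libraries, which limits the precision of all members and most of all of Omd, Aspn and Fmod, whose levels were near 1 FPKM in many libraries. Ogn was also that low in Combination (0.463 to 1.81 FPKM). The members that changed sign under an alternative were uncalled before and after. With a pseudocount of 0.1, Fmod in Combination against Control was 0.26, and the calls over all genes were 16 between Combination and GC and 0 in the interaction. With that pseudocount Ogn differed from Control by -3.21 in Combination, in place of -2.45. With no filter on low values there were 3 calls between GC and Control and 7 in the interaction. With TMM scaling there were 0 calls between GC and Control and 49 between Combination and GC, Fmod was 0.15 in Combination against Control, and Prelp was 0.03 (0.026) in Combination against GC. With the compared groups alone, calls numbered 3 (GC against Control), 94 (Combination against Control), 3 (Combination against GC) and 27 (Combination against ICB), and 0 members were called in Combination against Control or against ICB.

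The replicate numbers of the titles showed no clear pairing of the libraries. The deviations of the 18 pairs with the same number correlated between -0.236 and 0.416, and those of the 36 other pairs between -0.445 and 0.431. Of 12 libraries, 6 correlated best with one of their own number. The descriptions number some libraries otherwise, and pairing by those numbers was not checked. With the replicate block there were 3 calls in GC against Control, 53 in Combination against GC and 0 in the interaction.

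With the hepatocyte list as a covariate, calls numbered 661 (GC against Control), 244 (Combination against Control), 235 (Combination against GC) and 211 (interaction), and 0 members were called in Combination against Control or ICB. Against Control, Aspn was then 1.61 in GC, Fmod 0.62 in ICB, and in Combination Aspn 1.86, Bgn -0.11, Dcn -0.12, Fmod 2.04, Omd 0.37 and Prelp -0.68. In Combination, Aspn was 0.25 and Fmod 0.12 against GC, and Aspn 0.58 and Prelp -0.81 (-0.805) against ICB. With the fibroblast list as a covariate, calls numbered 0 (GC against Control), 3 (Combination against GC), 128 (Combination against ICB) and 0 (interaction). Fmod was then -0.45 and Omd -0.06 (-0.055) in GC, Aspn -0.27 and Omd -0.05 (-0.046) in ICB, and Fmod 0.57 (0.575) in Combination, each against Control. Aspn was 1.18 and Fmod 1.02 in Combination against GC, Aspn 0.16 against ICB, and the interaction 1.45 for Aspn and 1.65 for Fmod. Without both muscle-rich libraries, calls numbered 0 (GC against Control), 149 (Combination against Control), 15 (Combination against GC), 152 (Combination against ICB) and 0 (interaction). Fmod was then 0.85 and Omd -0.02 (-0.021) in ICB, and Aspn 0.19 and Fmod 1.04 in Combination, against Control, and Aspn 0.33 and Fmod 0.01 (0.007) in Combination against GC. The cause of these shifts was not tested.

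Leaving out 1 library at a time gave these ranges. For Combination against Control, Aspn -1.488 to 0.188, Bgn -0.646 to 0.592, Fmod -0.615 to 1.039 and genes called 219 to 3167. For Combination against GC, Aspn -1.479 to 0.327, Fmod -1.307 to 0.007, Prelp -0.818 to 0.009, genes called 24 to 3014 and members called 0 to 2. For Combination against ICB, Fmod -0.389 to 0.662, Prelp -0.008 to 0.644 and genes called 108 to 2050. For GC against Control, Aspn -1.132 to 0.972, Fmod -0.043 to 1.728 and genes called 0 to 183. For ICB against Control, Aspn -0.484 to 1.191, Fmod -0.778 to 0.849 and Omd -0.107 to 0.337. For the interaction of GC and ICB, Aspn -1.976 to 0.128, Fmod -1.538 to 0.233 and genes called 0 to 812. The highest counts of calls came without Combination replicate 1, where Omd passed between Combination and GC. Counts of called members here include Ogn, which was chosen by these values, and nothing is read from its calls.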
